A study of Rattus norvegicus with 40 samples.

Results

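The samples described here are of the unballooned right common carotid artery of rats whose left carotid had been injured 4 days before, set against the left carotid of sham-operated rats of the same day. They were taken by their labels alone, as the 3 arrays of right arteries with gel on the left side and the 6 arrays of sham arteries at 4 days, which makes 9 of the 40 arrays of the series. All rats were male Wistar-Kyoto rats of 3 months. In the first group a balloon catheter was passed through the left carotid and 500 µl of plain pluronic gel, a carrier, was laid on the outside of that left artery. The right artery received neither the catheter nor the gel. The sham group carries a sham operation and a left artery, and the labels name no gel for it. Side, sham operation, distant injury and gel therefore differ together between the groups and cannot be told apart. A further 6 arrays of left arteries from intact rats, and right gel and sham arrays of day 1 (3 and 4), served as other controls. Each array was hybridised with RNA from a pool of 3 vessels, and whether right and left arteries came from the same rats is not given in the sources used here. Values are linear intensities of Affymetrix rat arrays, on which several short probes make up a probe set.

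A carotid artery is a layered tube. An inner lining of endothelium lies on a media of contractile smooth muscle and elastic fibres, and an outer adventitia holds fibroblasts, immune cells, small nerves and fat. Sympathetic axons that release noradrenaline end in the adventitia of arteries, and the cell bodies of many of them lie in the superior cervical ganglion, beside the carotid in the neck. In such neurons tyrosine hydroxylase makes the precursor of dopamine, dopamine beta-hydroxylase turns dopamine into noradrenaline, and granins fill the dense-core vesicles that store it. RNA came from whole vessels, and in such bulk samples fewer cells of a type and less RNA per cell cannot be told apart.

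On day 4, 514 of 5827 tested probe sets differed between the right gel arteries and the sham arteries at a limma adjusted p under 0.05, which is 8.82% (363 higher, 6.23%, and 151 lower, 2.59%). With 1 probe set for each of 3546 genes, 332 differed (9.36%): 246 were higher (6.94%) and 86 were lower (2.43%). The counts given below for gene lists are to be read beside these shares. The arrays of the groups did not overlap for 388 genes higher (10.9%) and 210 lower (5.92%) in right gel arteries, called or not. More than 4-fold differences were seen for 146 of the higher probe sets and 24 of the lower ones. The median difference over all tested genes was -0.0086 on the log2 scale. Without right gel replicate 3, 175 probe sets passed (148 higher, 27 lower), against 356 and 346 without replicates 1 and 2. Right gel arrays had 8 to 10 bright probe sets reading below 100 intensity units, sham arrays 0 to 5 (exact permutation test, two-sided, p = 0.0238, and 0.119 after Benjamini-Hochberg adjustment over 5 measures). Ranges of the actin and GAPDH 3'/5' ratios, of the share of values at the floor and of the median intensity overlapped between the groups. In a measure chosen after seeing the data, the top end of the intensity scale was lower in right gel arrays: the 99th percentile was 4528 to 5373, against 5857 to 9355 in sham arrays.

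Genes of noradrenergic neurons were far higher in the right gel arteries. Of the 11 tested genes in a list of sympathetic neuron and chromaffin cell markers, 6 rose and 0 fell, with a median difference of 1.51 (log2), against -0.0086 over all genes. Promoters of 2 of the risen genes are shown here because they hold the palindrome TGACGTCA, the full cAMP response element, which is the same on both strands. Capitals mark it in the window from 250 bases before to 50 bases after the RefSeq transcription start (build GRCr8), each written 5′ to 3′ on the strand of the gene. The Th window is chr1:207508169-207508468 (minus strand) and the Scg2 window is chr9:88256817-88257116 (minus strand).
Th: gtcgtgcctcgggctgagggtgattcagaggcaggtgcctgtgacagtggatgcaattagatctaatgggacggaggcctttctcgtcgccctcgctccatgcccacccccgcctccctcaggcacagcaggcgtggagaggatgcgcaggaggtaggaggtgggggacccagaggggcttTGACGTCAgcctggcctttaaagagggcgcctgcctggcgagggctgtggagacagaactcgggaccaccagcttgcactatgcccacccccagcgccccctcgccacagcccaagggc
Scg2: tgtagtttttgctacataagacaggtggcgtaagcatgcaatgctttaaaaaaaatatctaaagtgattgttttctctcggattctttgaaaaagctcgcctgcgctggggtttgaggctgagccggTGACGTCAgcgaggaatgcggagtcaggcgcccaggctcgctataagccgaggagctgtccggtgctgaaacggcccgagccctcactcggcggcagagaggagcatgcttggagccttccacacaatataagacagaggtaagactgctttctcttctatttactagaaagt
In the Th window the element starts 69 bases before the start site, and in the Scg2 window 123 bases before it. Of the 11 tested list genes 9 had a promoter in the table and 4 held the element: the others were Slc18a2 (chr1:268399771-268400070, plus strand, 52 bases before the start) and Vgf (chr12:25276971-25277270, minus strand, 90 bases before it). Of the risen list genes only Th and Scg2 were found to hold it, and Slc18a2 and Vgf were not called. Over all 33469 promoters of that length 1.83% held it. Of 27457 genes with a promoter, 2.0% held it in at least 1. The match describes these letters and shows no binding.

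Th, tyrosine hydroxylase, the rate-limiting enzyme of catecholamine synthesis, read 1798, 3059 and 3811 intensity units in right gel replicates 1 to 3, and 239.9, 346 and 421 as the lowest, median and highest of the sham arrays. Every right gel array lay above every sham array. The fitted difference was 3.05 (log2, SE 0.48), 8.28-fold (95% interval 4.21 to 16.3), with a limma adjusted p = 7.74e-05. Dbh, dopamine beta-hydroxylase, read 867, 1786 and 4404 against 5.9, 18.1 and 46.3 in sham. In 4 of the 6 sham arrays the value lay under the floor of 23.3 units to which low values were raised before log2, so that the fold of 66.5 (95% interval 19 to 233, adjusted p = 4.13e-05) understates the ratio of the raw readings. The same holds below for Scn7a, Scg3 and Thbs4 (4 of 6 sham arrays under the floor each) and Nefm (3 of 6), whose folds and intervals depend on the floor. No array of any other group reached the lowest right gel value of Dbh, the highest of the other 37 being 815. Npy, neuropeptide Y, a cotransmitter of noradrenaline, read 3358, 2942 and 2290.3 in right gel and 296, 378 and 436 in sham arrays, a 7.6-fold difference (adjusted p = 0.00442).

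Scg2, secretogranin II, read 395, 335 and 1535 against 11, 36.8 and 65.6 (16.6-fold, 95% interval 6.67 to 41.3, adjusted p = 9.13e-05), and replicate 3 was the highest of the 3. Scg3, secretogranin III, which is in no list here but is among the 12 largest rises, read 1001, 964 and 2925 against 9.3, 18.0 and 38.3 (54.2-fold against the floored sham values, 95% interval 13.4 to 219.6, adjusted p = 0.000212). Neither gene had overlapping groups. Both subunits of the nicotinic receptor by which ganglion neurons receive their input were higher: Chrna3 read 986, 1029 and 1637 against 24.2, 63.5 and 142 (19.2-fold, adjusted p = 0.000129). Chrnb4 rose less (2.15-fold, adjusted p = 0.014), its groups overlapped (514 to 1245 against 283 to 705), and its other probe set differed by -0.89. The call of Chrnb4 was lost without right gel replicates 2 and 3 (adjusted p = 0.0877 and 0.181) and after quantile normalization (adjusted p = 0.0518). Here and below, arrays were left out one at a time.

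Other genes of the same list did not pass. Slc18a2, the vesicular monoamine transporter, read 134, 169.5 and 282 against 26.9, 65.3 and 222, a difference of 1.51 with an adjusted p = 0.0534, and the groups overlapped. Slc6a2, the noradrenaline transporter of the axon terminal, read 215, 216 and 178 against 202, 267 and 292 (difference -0.34, adjusted p = 0.349). Vgf, a neuropeptide precursor, differed by 0.28 (adjusted p = 0.581). Pnmt, the enzyme that makes adrenaline in chromaffin cells, and Chrna7, a neuronal nicotinic subunit, differed by 0.06 and -0.56 (adjusted p = 0.922 and 0.41). Naming of list members beyond the 4 with the smallest p was decided after their values were seen.

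**Figure D1:**
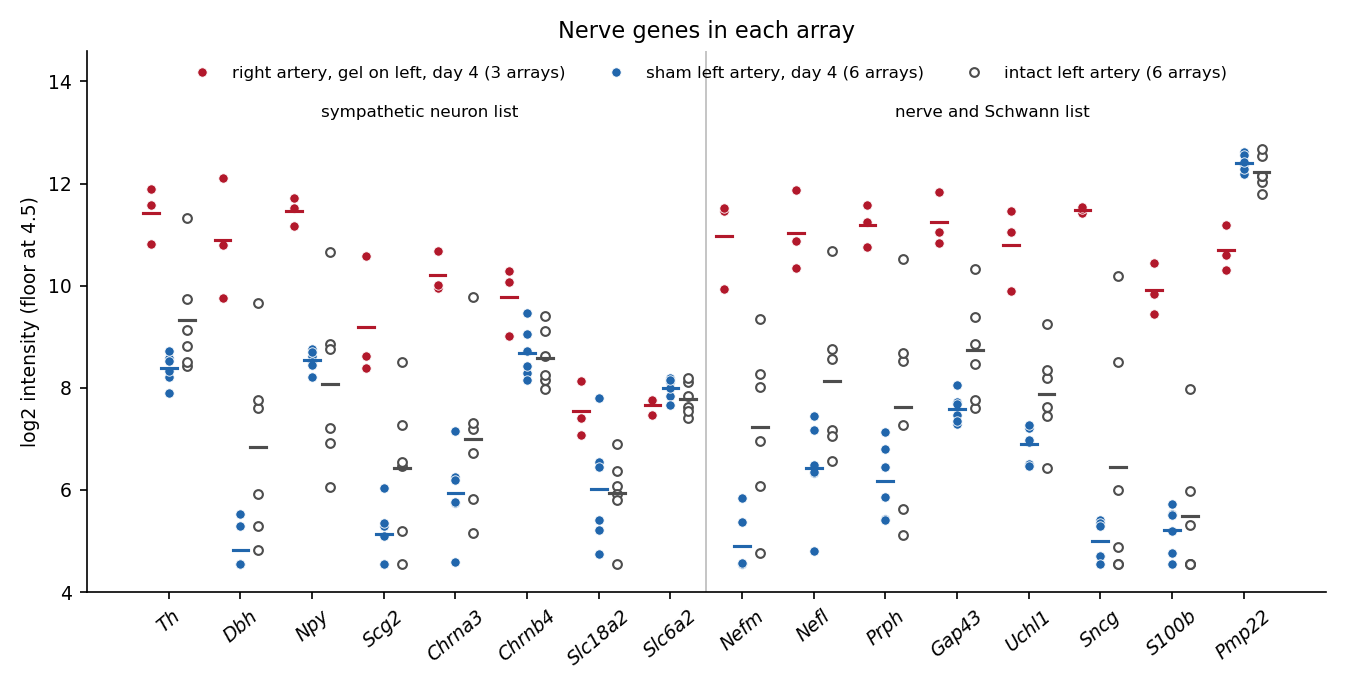
Log2 intensity (y axis, values below 4.5 raised to it) of 16 nerve genes (x axis) in each right gel day 4 array (red), sham day 4 array (blue) and intact array (open), with group means as bars. Right gel arrays lie above all sham arrays for Th, Dbh, Npy, Scg2, Chrna3 and 7 genes of the nerve list, overlap them for Chrnb4, Slc18a2 and Slc6a2, and lie below them for Pmp22.

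Genes of axons and of their sheath made up a second list, nerve and Schwann cell markers, of which 17 were tested. Here 8 rose and 2 fell, with a median of 2.03, against 6.94% higher and 2.43% lower over all genes. Neurofilament genes, which build the axon skeleton, were among the 12 largest rises: Nefm read 977, 2827 and 2929.9 against 9.3, 20.2 and 57.4 (67-fold against the floored sham values, SE 0.93 on the log2 scale, adjusted p = 5.98e-05). Nefl read 1302, 1887 and 3734 against 28.1, 85.5 and 174 (24.3-fold, 95% interval 8.56 to 68.8, adjusted p = 9.97e-05). Prph, peripherin, the intermediate filament of peripheral neurons, read 1736, 2417 and 3069 against 42.7, 72.5 and 141 (32.3-fold, adjusted p = 0.000572). For all 3 filament genes the groups were apart, and replicate 1 was the lowest right gel array.

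Sncg, gamma-synuclein of peripheral neurons, varied little among the right gel arrays, which read 2742, 2883 and 2974, against 19.4, 32.9 and 42.7 in sham (89.2-fold, 95% interval 19.2 to 416, adjusted p = 0.000163). Gap43, a growth cone protein, read 2129.8, 1831 and 3629.5 against 157, 192 and 264 (12.5-fold, adjusted p = 2.41e-05). Uchl1, an abundant neuronal deubiquitinase, read 954, 2108 and 2824 against 88.5, 124 and 154 (15-fold, adjusted p = 4.7e-06), and its other probe sets differed by 2.78 and 1.98. In all 3 genes the lowest right gel array stood well above the highest sham array. Thy1, a surface protein of neurons and some fibroblasts, rose 7.47-fold (adjusted p = 0.0105), a call lost without right gel replicates 1 and 2 (adjusted p = 0.059 and 0.0624). It read 2185 to 6550 in right gel arrays and 6033 to 6706 in left gel arteries of day 4.

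Glial genes went several ways. S100b, a calcium-binding protein of glia and Schwann cells that fat cells also make, read 696, 921 and 1389.5 against 14.7, 41.1 and 52.8 (25.9-fold, 95% interval 6.74 to 99.9, adjusted p = 0.00141). Myelin genes did not pass: Mbp differed by 2.03 (adjusted p = 0.0981) and Prx, periaxin, by 1.55 (adjusted p = 0.124), with no overlap of the groups in either. Pmp22, a myelin protein also made by vessel wall cells, was lower, at 1564, 2333 and 1267 against 4659, 5369 and 6260.1 (3.26-fold lower, 95% interval 2.19 to 4.85, adjusted p = 0.000131), while its other probe set differed by 0.06. Ngfr, the low-affinity neurotrophin receptor, fell by 1.07 on the log2 scale (adjusted p = 0.0436), but its other probe set differed by 2.04, and the call was lost when any 1 array other than right gel replicate 1 and sham replicates 1, 3 and 4 was left out (adjusted p = 0.0737 to 0.259).

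Further genes of the 12 largest rises lay outside these lists, and some of them are known from neurons or glia. Scn7a, a sodium channel-like protein of glia and sensory neurons, read 5292, 4692 and 5027 against 5.5, 20.8 and 48.8, 183-fold against the floored sham values (95% interval 21.7 to 1543, adjusted p = 0.00129). Its other probe set differed by -0.18, so the rise rests on 1 probe set. Mapk8ip2, a kinase scaffold of the nervous system, read 710.2, 1800.4 and 1701 against 25, 41.5 and 74.5 (31.2-fold, adjusted p = 5.98e-05). Reln, the secreted protein reelin, read 1568, 876 and 1197 against 21.3, 51.2 and 163 (21.7-fold, adjusted p = 0.00141). Cd24, a surface protein of neurons and blood cells, rose 20.9-fold (adjusted p = 0.00031), and Sostdc1, an inhibitor of bone morphogenetic proteins, 19.3-fold (adjusted p = 0.000695). None of these genes had overlapping groups. In sham arrays of day 1, Scn7a, Reln and Sostdc1 reached 4852, 1111 and 1847, while Mapk8ip2 and Cd24 reached 33.6 and 337. Stmn1, stathmin, a tubulin-binding protein of neurons and dividing cells, and Mt3, a metallothionein best known from brain, rose 9.2-fold and 18.1-fold (adjusted p = 0.000274 and 0.000529). Stmn1 read 2398 to 3625 in right gel arrays and 2797 to 3618 in left gel arteries of day 4. In the whole series 11 other arrays reached its lowest right gel value.

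High levels of these lists were not confined to the 3 right gel arrays. A list score, the mean of a list's log2 values after each gene was centred over all 40 arrays, was 1.42, 1.69 and 2.30 for the sympathetic list in right gel replicates 1 to 3, and -0.52 to 0.16 in sham arrays of day 4. Right arteries of the same day from rats given tPA in the gel had -0.43 to -0.18, although Npy read 2297, 564 and 3045 there, with replicates 1 and 3 inside its right gel range; left gel arteries of day 4 had 0.15 to 0.85. Right gel arteries of day 1 had -0.69 to -0.16. Single arrays of other groups lay inside the right gel range on 1 of the scores: intact replicate 3 had 1.42 on this score and 1.29 on the nerve score, where the right gel arrays had 1.65 to 2.15 and the sham arrays -0.95 to -0.33. In that intact array Th read 2581 and Scn7a 4799, both within the right gel range. Replicate 2 of the left tPA arteries of day 1 reached 1.34 and 1.98 on these scores.

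**Figure D2:**
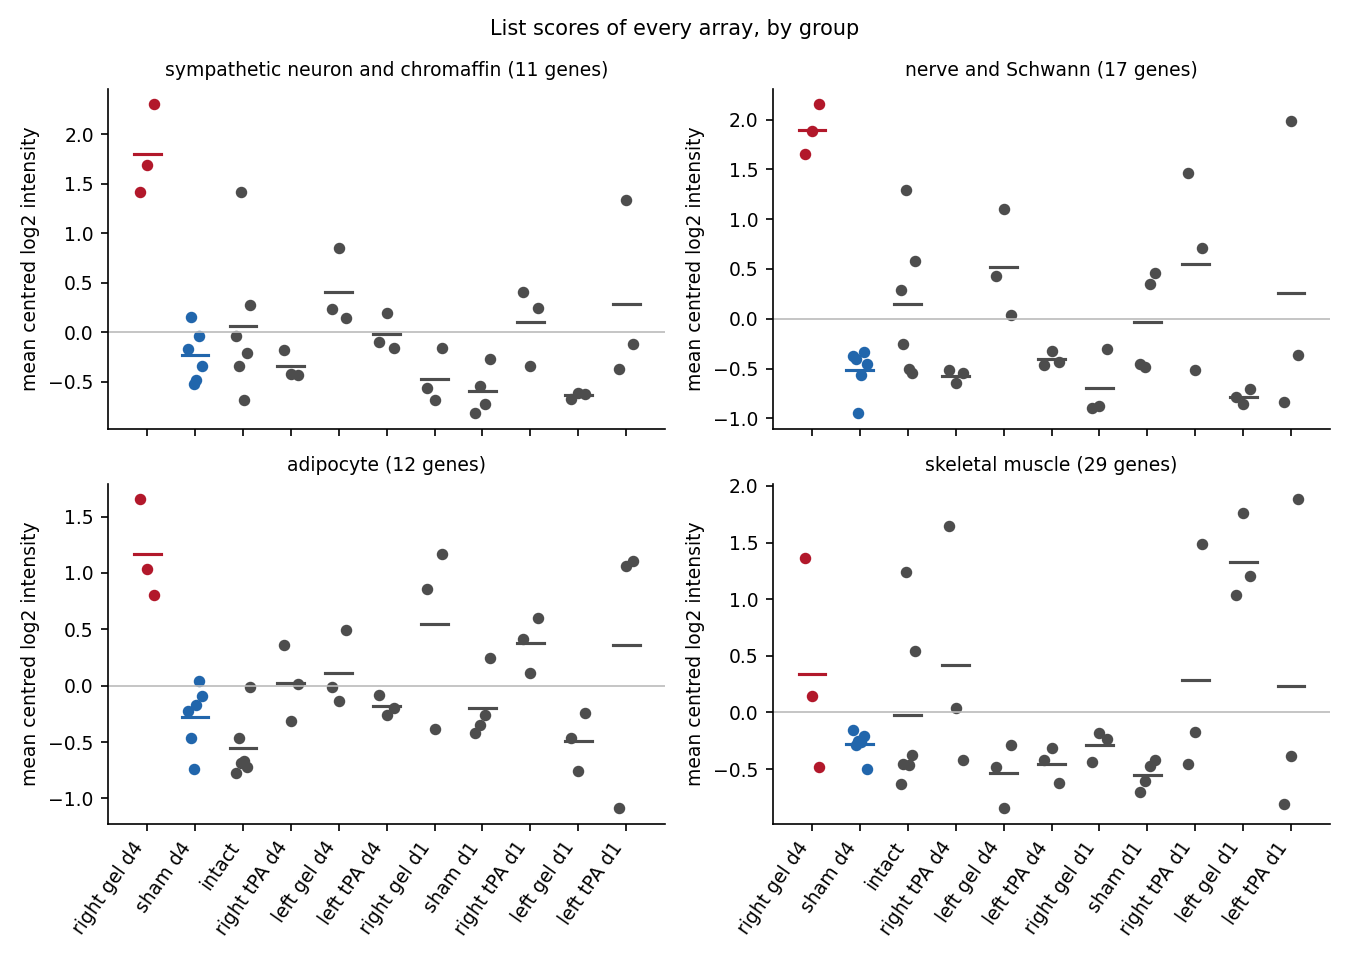
Score of 4 marker lists (y axis, mean of log2 intensities centred gene by gene over 40 arrays) in every array (points, with group means as bars) of the 11 groups (x axis, d1 and d4 for days 1 and 4). Right gel day 4 arrays reach 1.42 to 2.30 for the sympathetic list and spread from -0.48 to 1.37 for skeletal muscle.

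Counted over the whole array, 29 of 3546 genes (0.818%) read higher in all 3 right gel arrays than in all other 37 arrays of the series. Among the 246 genes called higher there were 28 of them, or 11.4%. Those 246 were called from the same right gel arrays, so their larger share follows from that choice and is no separate evidence. The list genes above all other arrays were Dbh, Chrna3, Prph, Gap43 and Uchl1. Markers of other tissues that a dissected vessel can hold were counted too, against 6.94% higher and 2.43% lower over all genes. Of 29 skeletal muscle genes tested 1 rose and 0 fell (median 0.42), and their score was 1.37, 0.14 and -0.48 in right gel replicates 1 to 3, against -0.50 to -0.16 in sham. Tnnc2, fast troponin C, read 5862, 802 and 155 against 67.2, 80.5 and 104: its call (adjusted p = 0.0422) was lost when any 1 array other than right gel replicate 3 was left out (adjusted p = 0.0522 to 0.352). Of 8 tested genes of salivary, thyroid and parathyroid tissue none passed in limma (median -0.28). The part of nerve, ganglion, fat or muscle in the differences was not tested.

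Fat cell markers were higher too. Of 12 adipocyte genes tested 5 rose and 0 fell, with a median of 1.32, and their score was 1.65, 1.03 and 0.81 in right gel replicates 1 to 3 and -0.74 to 0.04 in sham. Ucp1, the uncoupling protein of brown fat, read 2546, 434 and 211 against 28.3, 85.4 and 154 (8.75-fold, adjusted p = 0.0118). Replicate 1 was far above the other right gel arrays, and the call was lost without right gel replicate 1 (adjusted p = 0.165). Fabp4, the fatty acid carrier of fat cells, read 3026, 1511 and 1087 against 9.5, 191 and 371 (11.8-fold, adjusted p = 0.0442), and its call was lost when any 1 array other than sham replicate 4 was left out (adjusted p = 0.0509 to 0.175). Cfd, adipsin, read 3805, 3320.0 and 1765 against 382, 613 and 718 (4.76-fold, 95% interval 2.82 to 8.05, adjusted p = 0.000131). Lpl, which frees fatty acids from lipoproteins, rose 9.03-fold (adjusted p = 0.00746), a call lost without right gel replicate 1 (adjusted p = 0.0506). Lipe, hormone-sensitive lipase, and Pparg, the regulator of fat cell formation, differed by 1.25 and 1.40 and did not pass (adjusted p = 0.0604 and 0.0565). The groups of this score did not overlap; the same held for the sympathetic, nerve, lipid, macrophage, lymphocyte, antigen presentation, cytokine, endothelial, heat shock, contractile and ribosomal lists, the last 2 with right gel lower.

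Enzymes of cholesterol and fatty acid synthesis were among the genes that rose. The list of lipid and sterol metabolism, which shares Lpl, Scd and Pparg with the fat cell list, had 11 of 33 genes higher and 1 lower (median 0.53). Sqle, squalene epoxidase, a rate-limiting step toward cholesterol, read 1149, 1512 and 2687 against 306, 353 and 426 (4.72-fold, 95% interval 3.09 to 7.22, adjusted p = 1.34e-05). Cyp51, lanosterol demethylase, read 2090.2, 2688 and 4102 against 741, 889.9 and 1164 (3.12-fold, adjusted p = 0.0019), and Lss, lanosterol synthase, read 501, 1127 and 1384 against 327, 382 and 408 (2.44-fold, adjusted p = 0.00105). In these 3 genes every right gel array lay above every sham array. Insig1, a sterol sensor that is itself induced by the same pathway, rose 3.01-fold (adjusted p = 0.00464), a call lost without right gel replicate 3 (adjusted p = 0.0545). Idi1 and Fdps, earlier steps of the pathway, rose 2.54-fold and 1.9-fold (adjusted p = 0.0475 and 0.0421). Their calls were lost after quantile normalization (adjusted p = 0.0745 and 0.088); that of Idi1 also when any 1 array other than sham replicates 1 and 4 was left out (adjusted p = 0.0539 to 0.275), and that of Fdps when any 1 array other than right gel replicate 1 and sham replicates 3 and 4 was left out (adjusted p = 0.0607 to 0.39).

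Sterol genes also differed between the control groups: Sqle, Insig1 and Scd2 fell in sham against intact arteries. Against intact arteries Sqle differed by 1.01 (adjusted p = 0.0495), Cyp51 by 0.51 (adjusted p = 0.559) and Insig1 by 0.25 (adjusted p = 0.859), while sham minus intact gave -1.23, -1.13 and -1.34 (adjusted p = 0.0184, 0.0663 and 0.037). Both contrasts share arrays with the first one, so the values are given side by side. Of the fatty acid side, Scd, a desaturase, read 706, 183 and 418 against 23.0, 50.8 and 101 (8.44-fold, adjusted p = 0.000212) and Fasn, fatty acid synthase, read 876, 591 and 732 against 269.5, 373 and 441 (1.99-fold, adjusted p = 0.00168). Neither had overlapping groups, but the other Fasn probe set differed by -0.30. Scd2, a second desaturase, rose 2.41-fold (adjusted p = 0.0147), a call lost without right gel replicates 1 and 3 (adjusted p = 0.0858 and 0.0757). Apod, an apolipoprotein also found in nerve, rose 8.19-fold (adjusted p = 0.00845).

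Few immune genes passed the test singly, while the scores of several immune lists did not overlap between the groups. Of 8 macrophage genes 2 rose (median 1.46, 7 above 0), of 12 lymphocyte genes none passed (median 0.70, 10 above 0), and of 13 antigen presentation genes 2 rose and 1 fell (median 0.19). The macrophage score was 0.10 to 0.57 in right gel and -1.61 to -0.40 in sham arrays, and the lymphocyte score -0.14 to 0.19 and -1.05 to -0.38. The antigen presentation score was 0.15 to 0.34 and -0.67 to -0.03. Right gel arrays lay above all sham arrays in 5 of the 8 macrophage, 6 of the 12 lymphocyte and 6 of the 13 antigen presentation genes, against 10.9% of all genes. Lgals3, galectin-3, read 1952, 2749 and 2607 against 382, 724 and 852 (3.63-fold, adjusted p = 0.0043). Ctss, the protease cathepsin S, rose 2.66-fold (adjusted p = 0.00485), a call lost without right gel replicate 2 (adjusted p = 0.0663). C1qb, a complement subunit of macrophages, differed by 2.16 with no overlap but did not pass (adjusted p = 0.125). RT1-Db1, a class II major histocompatibility chain, read 1894, 1514 and 1462 against 129, 328 and 380.1 (5.66-fold, adjusted p = 0.0148), a call lost without right gel replicates 1 and 3 (adjusted p = 0.0633 and 0.0666). Its partner Cd74, the invariant chain, differed by 2.28 (adjusted p = 0.156), with sham arrays at 40.5, 571 and 791 for lowest, median and highest and right gel arrays at 1488 to 2369.

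Among cytokines Il18, an interleukin activated by inflammasomes, read 638, 1015 and 1953 against 83.9, 109 and 204 (9.09-fold, 95% interval 3.64 to 22.7, adjusted p = 0.00142), with its other probe set at 2.83. Cxcl13, which draws B cells, read 892, 250.2 and 446 against 15.3, 67.8 and 129 (8.05-fold, adjusted p = 0.0107), a call lost without right gel replicates 1 and 3 (adjusted p = 0.0847 and 0.0561). These were the 2 genes higher among 16 tested cytokines and chemokines (median 0.24), and in both the groups were apart. Psmb9, an interferon-induced proteasome subunit, rose 2.47-fold (adjusted p = 0.0217), a call lost without right gel replicates 1, 2 and 3 and sham replicate 5 (adjusted p = 0.0548, 0.0814, 0.107 and 0.0522). B2m, the light chain of class I molecules, fell by 0.98 on the log2 scale (adjusted p = 0.0125). That call was lost without right gel replicate 3 (adjusted p = 0.117) and after quantile normalization (adjusted p = 0.18). Of the 10 interferon response genes 1 passed, Psmb9 (median 0.36).

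Clock genes, whose levels follow the time of day, differed in both directions. Of 9 tested 1 rose and 2 fell (median -0.54). Bmal1, the activator of the loop, read 558, 279 and 503 against 99.9, 110.0 and 182 (3.42-fold, adjusted p = 0.00845), with its other probe set at 2.33; the call was lost without right gel replicates 1 and 3 (adjusted p = 0.0579 and 0.0714). Dbp, an output gene driven by it, read 680.1, 548 and 241 against 1365, 1910.0 and 3417 (4.62-fold lower, 95% interval 2.18 to 9.76, adjusted p = 0.00721), a call lost without right gel replicate 3 (adjusted p = 0.116). Nr1d1, REV-ERB alpha, which represses Bmal1, read 394, 504 and 225 against 563, 845 and 2093 (2.56-fold lower, adjusted p = 0.0184), a call lost without right gel replicate 3 and sham replicate 2 (adjusted p = 0.218 and 0.0509). For these 3 genes the groups did not overlap. Nr1d2, REV-ERB beta, differed by -1.59 (adjusted p = 0.0685) and overlapped. Clock time of tissue collection is not given in the sources used here, and its part was not tested.

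Of 16 immediate early genes 1 rose and 2 fell (median -0.29), against 6.94% higher and 2.43% lower over all genes. Klf4, a factor that represses smooth muscle genes, read 7453, 4992 and 3867 against 1064, 2479.7 and 3438 (2.34-fold, adjusted p = 0.0109), and its other probe set gave 1.22; the call was lost without right gel replicate 1 (adjusted p = 0.104). Dusp1, a phosphatase of the kinases induced by stress, fell by 1.06 (adjusted p = 0.00746), a call lost without right gel replicate 3 (adjusted p = 0.11). Egr1, an early growth response factor, fell by 0.89 (adjusted p = 0.0341), but differed by -0.19 after quantile normalization (adjusted p = 0.567), and the call was lost when any 1 array other than sham replicates 1, 3 and 4 was left out (adjusted p = 0.058 to 0.155). Among 22 cell cycle genes 3 rose and 0 fell (median 0.13). Besides Stmn1 these were Ccnd1, cyclin D1 (3.82-fold, adjusted p = 0.0272), and H2az1, a histone variant (2.39-fold, adjusted p = 0.0238). Their calls were lost without right gel replicates 1 and 2 and sham replicate 3 (adjusted p = 0.128, 0.108 and 0.0553) and without right gel replicates 1, 2 and 3 and sham replicate 2 (adjusted p = 0.059, 0.059, 0.157 and 0.0624), respectively, and H2az1 also after quantile normalization (adjusted p = 0.0563). The other Ccnd1 probe sets differed by 0.35, -0.33 and 0.98 and did not pass, so the Ccnd1 call rests on 1 probe set. With all its probe sets averaged, Ccnd1 differed by 0.73 (limma adjusted p = 0.132). Cdk1, the mitotic kinase, and Pcna, the replication clamp, did not pass (differences 1.19 and 0.26, adjusted p = 0.221 and 0.576).

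**Figure D3:**
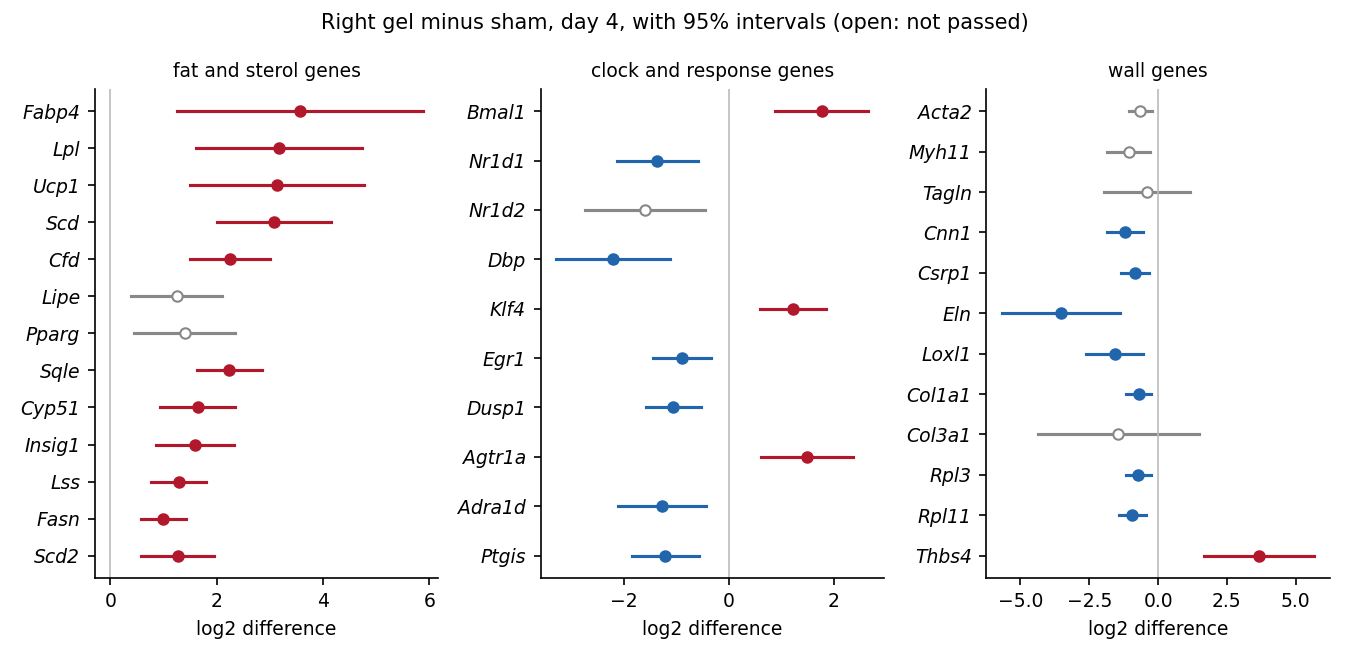
Log2 difference (x axis, right gel minus sham on day 4) with its 95% interval for fat and sterol genes, clock and response genes, and genes of the vessel wall. Filled red and blue points passed, open points did not; the widest interval among the wall genes is that of Col3a1.

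All 16 tested contractile smooth muscle genes had differences below 0 (median -0.73), and 2 of them fell. Cnn1, calponin, read 1531, 3186 and 2205 against 3823, 5201 and 6718 (2.32-fold lower, 95% interval 1.47 to 3.65, adjusted p = 0.0148), a call lost without right gel replicates 1 and 3 (adjusted p = 0.131 and 0.077). Csrp1, a muscle LIM protein, read 5698, 4912 and 4077 against 6507, 9128 and 11913 (1.79-fold lower, adjusted p = 0.0335), but after quantile normalization its difference was -0.24 (adjusted p = 0.34) and the call was lost when any 1 array other than right gel replicate 1 and sham replicates 1, 3 and 4 was left out (adjusted p = 0.0586 to 0.218). Acta2, smooth muscle actin, read 6306, 5170.1 and 5220.3 against 6047, 9279 and 13014 (difference -0.64, adjusted p = 0.052), and Myh11, smooth muscle myosin, 2994, 4411 and 3198 against 5903, 7092 and 9544 (difference -1.07, adjusted p = 0.0734). The other Acta2 probe sets differed by -0.46 and -2.11 (limma adjusted p = 0.529 and 0.0176), the latter dim at a mean log2 intensity of 6.15. Over 21 alternatives the Acta2 difference ran from -1.07 to 0.01, and it passed under 9 of them. Tagln, transgelin, differed by -0.41 (adjusted p = 0.8), with the lowest sham array at 388. After quantile normalization the list's median was -0.67 with 1 of 16 above 0 and 1 lower. The defining smooth muscle markers of an artery were thus bright in both groups.

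Of 35 tested genes that act on vessel tone 1 rose and 2 fell (median -0.22), a share near the 9.36% called over all genes. Agtr1a, the angiotensin II receptor, read 1627, 972 and 1878 against 402, 501 and 736 (2.79-fold, adjusted p = 0.0257). Its other probe sets differed by 0.79 and -0.37, and the call was lost without right gel replicates 1 and 3 and sham replicate 2 (adjusted p = 0.101, 0.182 and 0.0507). Ptgis, prostacyclin synthase, read 3122, 2369 and 1944 against 4866, 5274 and 7905 (2.31-fold lower, adjusted p = 0.0126), a call lost without right gel replicate 3 (adjusted p = 0.126). Adra1d, an adrenaline and noradrenaline receptor of vascular muscle, read 234, 272 and 136 against 399.8, 496 and 596 (2.41-fold lower, adjusted p = 0.0484), a call lost when any 1 array other than sham replicate 4 was left out (adjusted p = 0.061 to 0.299). The other Adra1d probe set differed by -0.25 (limma adjusted p = 0.653). Ptgs2, cyclooxygenase 2, differed by -1.75 (adjusted p = 0.0624). Pln, phospholamban, the brake on the calcium pump, read 16.7, 23.0 and 64.1 against 76.5, 149 and 194 (4.06-fold lower, adjusted p = 0.0174), a call lost without right gel replicates 1 and 2 (adjusted p = 0.101 and 0.0999). These 2 right gel arrays lay under the floor of 23.3 units, so the fold of Pln depends on the floor. Over the alternatives its difference ran from -2.51 to -0.75 on the log2 scale.

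Of 12 endothelial genes 1 was called higher and 1 lower, against 6.94% and 2.43% over all genes. Their median was 0.11, with 8 above 0. Their score was -0.06 to 0.06 in right gel and -0.48 to -0.12 in sham arrays, without overlap. Kdr, a receptor of vascular endothelial growth factor, read 789, 332 and 327 against 38.3, 81.3 and 152 (5.87-fold, adjusted p = 0.00466), a call lost without right gel replicate 1 (adjusted p = 0.0517). Gja4, connexin 37, read 234, 122 and 131 against 269, 362 and 498 (2.36-fold lower, adjusted p = 0.00449), a call lost without right gel replicate 3 (adjusted p = 0.0561). Both genes had groups apart, in opposite directions. Pecam1, the junction protein CD31, and Nos3, the endothelial nitric oxide synthase, differed by -0.56 and 0.09 (adjusted p = 0.154 and 0.93). Vcam1 and Icam1, the leukocyte adhesion molecules, differed by 0.46 and 0.19 (adjusted p = 0.489 and 0.74).

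Matrix genes fell in 3 of 24 and rose in 1 (median -0.53), against 2.43% lower and 6.94% higher over all genes. Thbs4, thrombospondin 4, read 838, 450.2 and 307 against 11.7, 19.6 and 146 (12.8-fold, adjusted p = 0.0149), a call lost without right gel replicate 1 (adjusted p = 0.0857). Col1a1, fibrillar collagen, read 6224, 5613 and 5720.4 against 6775, 10174 and 11948 (1.63-fold lower, adjusted p = 0.0436), but differed by -0.02 on the log2 scale after quantile normalization (adjusted p = 0.962), and the call was lost when any 1 array other than sham replicates 1 and 4 was left out (adjusted p = 0.0524 to 0.172). The other Col1a1 probe sets differed by 0.36, -0.21 and -5.48 (limma adjusted p = 0.674, 0.725 and 0.04). Loxl1, which crosslinks elastin, fell by 1.58 (adjusted p = 0.0482), and this was lost after quantile normalization (adjusted p = 0.0866) and when any 1 array other than sham replicate 4 was left out (adjusted p = 0.0587 to 0.189). The other Loxl1 probe set differed by -0.40 (limma adjusted p = 0.455). Eln, elastin, read 60.4, 537 and 1712 against 2323, 4800.0 and 7205 (adjusted p = 0.0311); its probe set reads near 0 on some arrays, and the call was lost when any 1 array other than right gel replicate 3 and sham replicates 1, 3 and 4 was left out (adjusted p = 0.0525 to 0.302). Col3a1 differed by -1.44 (adjusted p = 0.592). Spp1, osteopontin, and Timp1, an inhibitor of matrix proteases, differed by -0.27 and 0.18 (adjusted p = 0.774 and 0.774).

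Genes of the plasminogen system, the subject of the series, were not called in the untreated right artery. Of 12 tested none passed at a limma adjusted p under 0.05 (median 0.18). Plat, tissue plasminogen activator, read 394, 567 and 685 against 196, 394 and 576 (difference 0.52, adjusted p = 0.416), and the groups overlapped. Plau, urokinase, and its receptor Plaur differed by 0.83 and 1.22 (adjusted p = 0.209 and 0.124), with no overlap in either. Ccl2, the monocyte chemokine, differed by 1.25 (adjusted p = 0.239).

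Of the 86 lower genes 59 had a mean log2 intensity of 10 or more. In 165 genes with a mean log2 intensity of 12 or more, 3 rose and 26 fell (median -0.48), whereas among 1490 genes below 8 there were 90 risen and 14 fallen (median -0.05). Ribosomal protein genes, among the brightest on the array, had 6 of 36 lower and 0 higher (median -0.65). Quantile normalization, which gives every array one distribution, left 0 of them called, with a median of -0.19. Rpl3 and Rpl11 read 4514, 4852 and 4102 and 4968, 3866 and 3533 in right gel replicates 1 to 3, against 5869 to 8238 and 4911 to 11382 in sham (adjusted p = 0.0345 and 0.011, and 0.531 and 0.124 after quantile normalization). The 6 ribosomal calls became 1, 0 and 0 without right gel replicates 1 to 3, and 1 each without sham replicates 2, 5 and 6. Of 28 mitochondrial energy genes 3 fell and 0 rose (median 0.10); Cox8a, a cytochrome oxidase subunit, read 3770.5, 1486 and 639 against 3969.8, 4773 and 5768 (adjusted p = 0.00064), a call lost without right gel replicate 3 (adjusted p = 0.0501), and its other probe sets differed by 0.53, -4.90 and 0.01. Cox8a kept its call after quantile normalization. The top end of the intensity scale was also lower in the right gel arrays, and its part in these falls was not tested.

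**Figure D4:**
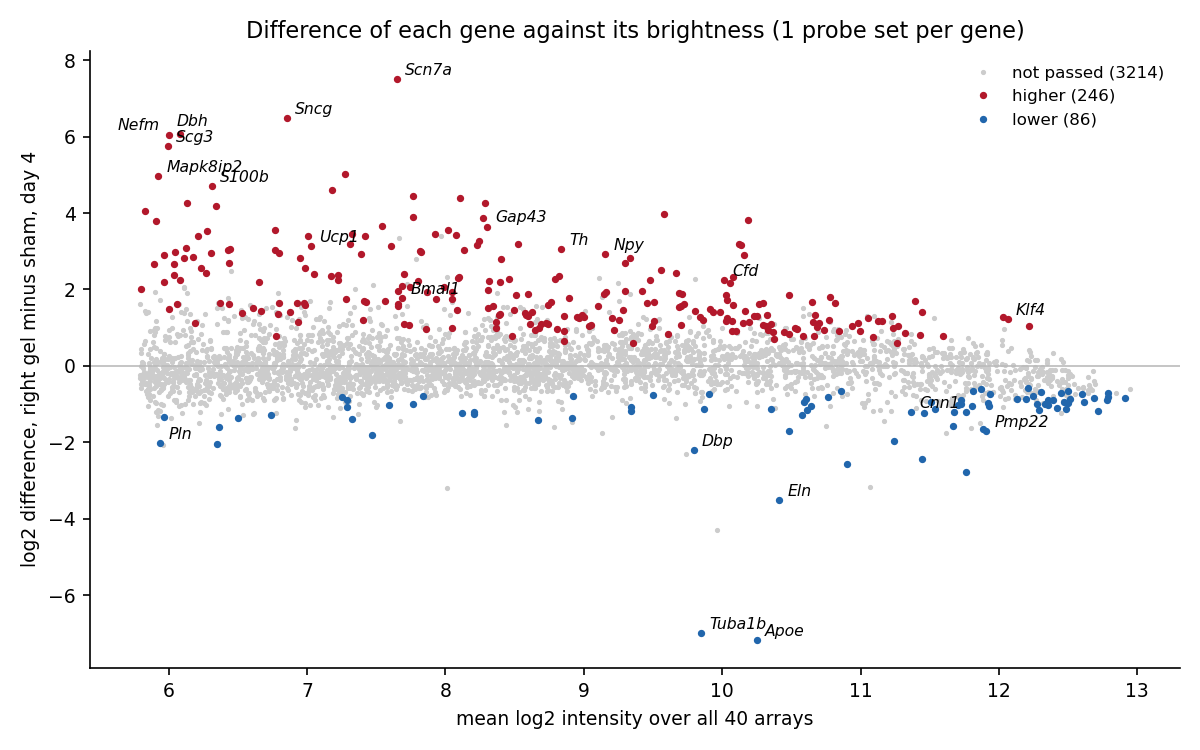
Log2 difference between right gel and sham arteries on day 4 (y axis) against mean log2 intensity over 40 arrays (x axis) for 3546 genes. The 246 genes called higher (red) lie mostly below a mean of 12, and many of the 86 called lower (blue) lie at 10 or more, 59 in number.

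**Figure D5:**
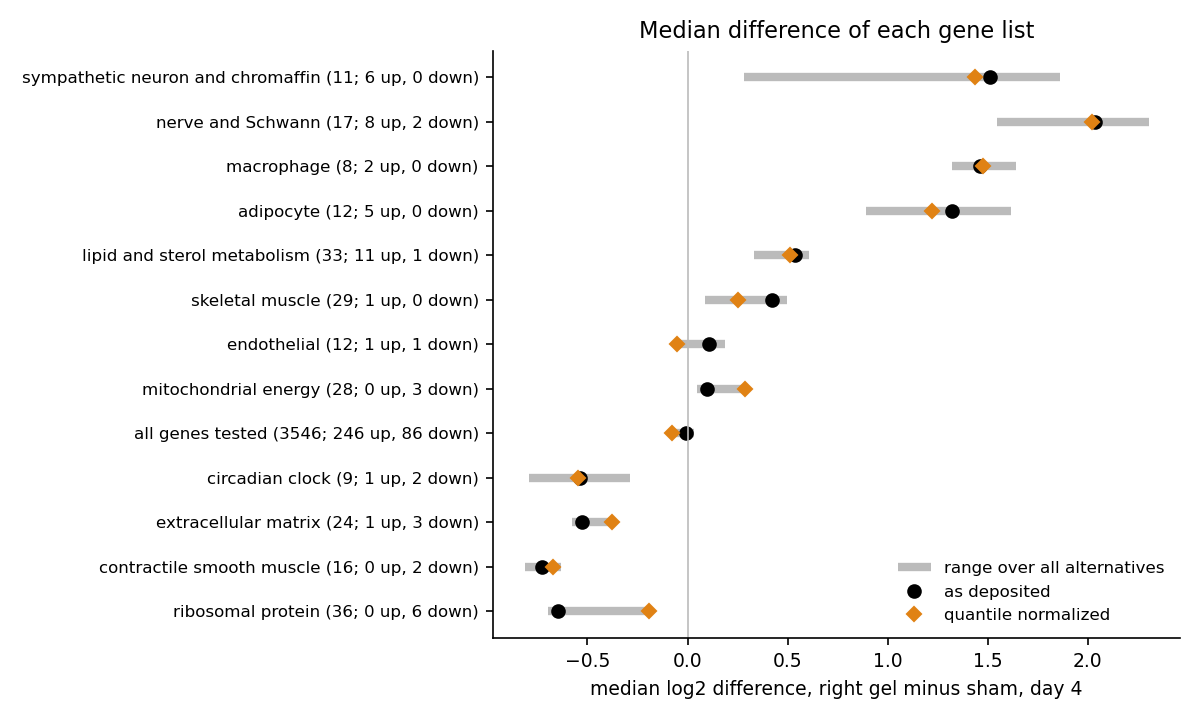
Median log2 difference (x axis, right gel minus sham on day 4) of each gene list (y axis, with genes tested and called) as deposited (circles), after quantile normalization (diamonds) and over all alternatives run (grey bars). Nerve, fat and macrophage lists stay above 0 and the contractile list below it, while the ribosomal list moves from -0.65 to -0.19.

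The deepest falls came from bright probe sets with readings near 0 in 1 or more of the right gel arrays. Apoe, apolipoprotein E, read 41.3, 4.3 and 0 against 3214, 3947 and 5235 (difference -7.17, adjusted p = 2.84e-05), but its other probe set differed by 2.52, in the opposite direction. Tuba1b, an alpha tubulin, read 0, 318 and 0 against 4557, 7448 and 9632 (adjusted p = 0.0014). Capns1, the small calpain subunit, and Snrnp70, a splicing protein, read near 0 in replicate 3 alone (3990.3, 2740.4 and 53.9, and 1096, 2848 and 92.8), and their calls (adjusted p = 0.0312 and 0.0227) were lost without right gel replicate 3 and sham replicates 2, 5 and 6 (adjusted p = 0.604, 0.0517, 0.0526 and 0.0514) and without right gel replicate 3 (adjusted p = 0.437), respectively. The other Capns1 probe sets differed by 0.72 and -0.36 and that of Snrnp70 by 1.25, and none of them passed. With all probe sets averaged, neither gene passed (limma adjusted p = 0.101 and 0.418). Psma7, a proteasome subunit with no reading near 0 in these arrays, fell by 2.42 (adjusted p = 0.0403) with its other probe set at 0.28, and was lost when any 1 array other than right gel replicate 1 and sham replicate 4 was left out (adjusted p = 0.052 to 0.261). Without the 55 probe sets that are bright but read near 0 somewhere, 501 probe sets passed (364 higher, 137 lower). Of these, 500 were among the 514.

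The other largest falls did not rest on such probe sets. Pawr, a pro-apoptotic regulator, read 924, 907 and 1078 against 2186, 4371 and 5636 (3.93-fold lower, 95% interval 2 to 7.7, adjusted p = 0.00746). Rab4b, a GTPase of endosomes, read 98.5, 54.9 and 56.4 against 183, 228 and 333 (3.5-fold lower, adjusted p = 0.00266). The groups were apart in both genes. Grb14, an adaptor that inhibits insulin receptor signalling, read 1035, 1053 and 237 against 1156, 2207 and 2911 (3.27-fold lower, adjusted p = 0.003), a call lost without right gel replicate 3 (adjusted p = 0.146). Paxx, a DNA repair factor, was dim, at 13.8 to 63.6 against 153 to 209.6 (4.09-fold lower, adjusted p = 0.011), a call lost without right gel replicate 3 (adjusted p = 0.157).

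Against intact left arteries, which share the right gel arrays with the first contrast, 247 probe sets passed, or 4.24% (208 higher, 3.57%, and 39 lower, 0.669%). Of the 3546 genes 160 passed, or 4.51% (132 higher, 3.72%, and 28 lower, 0.79%). Median scaling made this 151 higher and 66 lower. It shifted the median difference by -0.17, and quantile normalization by -0.15. Of the 246 genes called higher against sham, 112 were also called higher against intact, and of the 86 lower, 18 lower. The sympathetic list had 6 of 11 higher (median 1.60), the nerve list 7 of 17 higher and 1 lower (median 1.68), and the fat list 7 of 12 higher (median 1.80). Sncg, Fabp4 and S100b had the largest rises (5.04, 4.76 and 4.43, adjusted p = 0.00478, 0.0109 and 0.00474), and Apoe, Tuba1b and Dbp the largest falls (-6.82, -5.73 and -2.92). Scn7a did not pass there (4.01, adjusted p = 0.172). Leaving out right gel replicate 2 or 3 gave 148 and 61 probe sets.

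Sham and intact arteries of the left side differed in 22 probe sets, or 0.378% (9 higher, 0.154%, and 13 lower, 0.223%). Of the genes 9 passed, or 0.254% (1 higher, 0.0282%, and 8 lower, 0.226%). None of the nerve or fat list genes was among them, and 4 of the 246 higher genes were. Or4b1d, an olfactory receptor gene, was the 1 named gene higher in sham (1.11, adjusted p = 0.0407). Tubb2b, a tubulin, Usp37, a deubiquitinase, and Insig1 had the largest falls (-1.72, -1.35 and -1.34, adjusted p = 0.037, 0.0478 and 0.037). The count was 0 without sham replicate 6, intact replicate 1 or intact replicate 4, and 5 without intact replicate 3. At an unadjusted p under 0.05 there were 586.

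The day 4 difference was then set against the same difference on day 1, when right gel arteries (3 arrays) were compared with sham arteries (4 arrays). The difference itself differed between days for 457 probe sets, or 7.84% (262 in the direction of higher on day 4, 4.5%, and 195 lower, 3.35%). Of the genes 272 passed, or 7.67% (177 higher, 4.99%, and 95 lower, 2.68%). Median scaling shifted it by 0.24 and turned this split into 391 and 107. Of the 246 genes higher on day 4, 132 were called in this test. It holds the day 4 difference itself and the same arrays, so a shared direction is no separate evidence. The lists had 5 of 11 sympathetic genes higher, and 9 of 17 nerve genes higher with 1 lower. Th read 205 to 345 in right gel and 276 to 343 in sham arrays on day 1 (difference between days 3.22, SE 0.71, adjusted p = 0.00484). Dbh read 10.1 to 69.3 and 20.4 to 62.7 on day 1 (difference between days 6.13, SE 1.31, adjusted p = 0.00425). Sncg, Scn7a and Scg3 had the largest positive values (9.88, 8.98 and 7.24). On day 1 Sncg read 16.3 to 125 in right gel and 283 to 696 in sham arrays, Scn7a 82.0 to 458 and 31.3 to 4852, and Scg3 11.9 to 45.5 and 8 to 339.9. For Sncg the day 1 groups were thus apart in the opposite direction, which enters the value. Col1a2, through a probe set that reads near 0 on some arrays, Apoe and Tuba1b fell most (-9.83, -6.96 and -6.61). The floor held 6.57% of the probe sets in replicate 3 of the day 1 right gel arteries, and 19.7 to 25.2% in the day 1 sham arrays. The count was 199 without right gel day 1 replicate 1, 257 without sham day 1 replicate 3, and 304 and 261 without right gel day 4 replicates 1 and 3.

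In fat, sterol and clock genes the comparison of days was mixed. No gene of the fat list was called in it, and Ucp1 read 121 to 1026 in right gel arteries already on day 1, against 71.5 to 94.8 in sham (difference between days 1.00, adjusted p = 0.64). Sqle and Lss were called (1.80 and 1.33, adjusted p = 0.0114 and 0.0258). Bmal1 read 157 to 233 in right gel and 657 to 1104 in sham arteries on day 1 (difference between days 3.83, adjusted p = 0.000735). Dbp, Nr1d1 and Nr1d2 went the other way (-3.19, -2.37 and -3.50, adjusted p = 0.0113, 0.00794 and 0.00804). On day 1 the right gel mean was below the sham mean for Bmal1, and above it for the other 3 genes.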

How the data were processed

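The authors deposited 1 table of linear intensity values for 40 arrays, scaled by the authors so that the 2% trimmed mean is alike on every array; the summary software is not given in the sources used here. Samples were grouped by their labels. From the intensities, control probe sets were left out, values under the 20th percentile (23.3) were raised to it, log2 was taken, and the dimmest 2913 of 8740 probe sets were left out. Differences among 11 group means were fitted with limma 3.58.1 in R 4.3.3 over all 5827 probe sets, with Benjamini-Hochberg adjustment at 0.05; intervals are 95%. A gene was represented by its brightest probe set. Gene names came from the platform annotation, which gave 7006 probe sets 1 symbol, 308 several and 1426 none. Promoters are RefSeq's (GRCr8). The fit was tested on simulated data first.

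The samples and gene lists were chosen with earlier results of these data known. Named genes are the 12 largest rises and falls, up to 4 members with the smallest p per list, a fixed set of plasminogen and wall genes, and the 3 largest changes per other contrast; further genes were chosen after their values were seen. The labels do not say which pools share animals, so p-values measure the spread between these arrays, which may be technical. The 3 and 6 arrays limit the precision. No hybridisation batch is given in the sources used here. Alternatives were other normalizations, floors, filters, moderation, array weights, sample sets, a replicate block and each array left out in turn.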

Additional observations from a re-analysis of the deposited data

Results flagged for a closer look

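Among 124 groups of 6 arrays checked, 13 held 1 sham array of day 4 that lay far from the other 5, where chance gives about 1 in 20. Sham replicate 2 was high for Scg3 (5.26, log2), Thy1 (10.78) and the actin 3'/5' ratio (23.7). Replicate 4 stood apart for Myh4 (5.41), Tagln (8.60), Rpl3 (12.52) and in its 5 bright probe sets below 100 units. Replicate 5 stood apart for RT1-Db1 (7.01), Cd74 (5.34) and Plau (6.79). The other values were Scn7a in replicate 1 (5.61), Cfd in replicate 3 (8.58) and the skeletal muscle score in replicate 6 (-0.50). Gene values in this check had been raised to the floor. For Scg3 and Scn7a most sham arrays lay under the floor and were tied there, so the rate of 1 in 20 does not hold for them.

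For 50 of the 106 genes described, the log2 difference between right gel and sham arteries differed between day 4 and day 1, by limma's test of that difference. Of the nerve genes these were Th (3.22), Dbh (6.13), Npy (3.71), Scg2 (4.32), Scg3 (7.24), Chrna3 (4.01), Nefm (6.52), Nefl (5.06), Prph (5.65), Gap43 (3.66), Uchl1 (4.03), Sncg (9.88), Thy1 (4.95), Scn7a (8.98), Mapk8ip2 (4.06) and S100b (6.21). Immune genes among them were Il18 (3.36), Cxcl13 (3.61), RT1-Db1 (6.43), Ctss (1.57), Lgals3 (2.29) and Cd74 (6.70). On day 1 sham arrays were above right gel arrays for RT1-Db1 (2115 to 2437 against 109 to 218 units) and Cd74 (1527 to 3212 against 15.7 to 412), which enters both values, and Cd74 did not pass on day 4 alone (adjusted p = 0.156). Thy1 and Cd24 were alike on day 1, with sham arrays at 580 to 1420 and 255 to 337 units. Right gel arrays of that day read 190 to 292 and 77.7 to 141, which enters the values of Thy1 and Cd24 too. Others with a more positive difference on day 4 were Reln (5.39), Cd24 (5.92), Sostdc1 (5.53), Stmn1 (3.64), Sqle (1.80), Lss (1.33), Apod (3.88), Kdr (2.99), Thbs4 (4.63), Bmal1 (3.83), Klf4 (1.78) and Mt3 (5.20). A more negative difference on day 4 was found for Pmp22 (-2.0), Gja4 (-1.60), Pecam1 (-1.33), Cnn1 (-1.59), Csrp1 (-1.20), Pln (-3.50), Ptgis (-1.61), Cox8a (-1.63), Apoe (-6.96), Tuba1b (-6.61), Pawr (-2.42), Rab4b (-3.03), Dbp (-3.19), Nr1d1 (-2.37), Nr1d2 (-3.50) and Egr1 (-1.28).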

How the results depend on the processing

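The count of 514 probe sets became 942 with array weights and 175 to 542 when 1 array was left out. Against intact arteries 247 became 499 with array weights and 61 to 246. For sham against intact, 22 became 10 after quantile normalization, 51 with array weights, 6 with only the groups compared and 0 to 24; median scaling gave 6 higher and 16 lower, in place of 9 and 13. For the difference between days, 457 became 199 to 494. With the replicate number as a block the 4 counts were 443, 182, 19 and 351; same-numbered arrays did not deviate together (correlations 0.02, 0.06 and 0.03), so the numbers were not taken as pairs. Of 78 called genes among the 106 described, 33 passed under every alternative run and 45 were lost under at least 1. Over 2202 pairs of gene and alternative, 203 lost the call, 51 gained it and 1 reversed: Ngfr was 0.48 when all its probe sets were averaged. Leaving out right gel replicate 3 ended the most calls (33). The causes were not tested. Differences among values under the floor cannot be measured, and 3 right gel arrays limit the precision.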
